A study of Mus musculus with 16 samples.

Results

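The genes described here are the nuclear genes for the subunits of oxidative phosphorylation (OXPHOS). They were taken from the gene names of the counts table: Nduf genes of the a, b, c, s and v series, Sdha to Sdhd, and names starting with Uqcr, Cox4 to Cox8 or Atp5. Of 24116 genes in the table, 92 matched these names. Cox6a2, 7 Ndufaf assembly factors and 6 genes under 1 CPM (counts scaled to the size of the library) in mean over all libraries were left out, which left 78 genes. All 78 passed the filter on low counts and were among the 13790 genes tested. The last gene kept was Cox6b2, with a mean of 1.99 CPM, followed by Atp5s with 9.84 CPM, and the first gene left out for its level was Cox7a1 with 0.12 CPM.

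RNA was sequenced from dendritic cells (DCs) sorted from mouse spleen, in 16 libraries. The labels give 4 subsets, Dec205, pDC, Esamlo and Esamhi, each as WT and as CKO with 2 libraries per group. The series is about the loss of Etv6, which encodes an ETS-family repressor of transcription, and CKO is the label of its Etv6-deficient arm. The labels name no Cre driver, age or number of animals. Each p-value therefore reflects library-to-library spread alone, which may be technical. Dec205 marks the cross-presenting classical DC (cDC1), pDC is the plasmacytoid DC that makes type I interferon, and Esamlo and Esamhi divide the other classical DCs (cDC2) by their surface ESAM.

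Libraries held 14434287 to 20709265 counts. The subset labels matched their defining markers: in WT, Xcr1 (the chemokine receptor of cDC1) was at 1252 ± 34 CPM in Dec205 and at or below 31 CPM in the other subset means, Siglech (a pDC receptor) was at 5548 ± 195 CPM in pDC, and Esam was at 147 ± 5.22 CPM in Esamhi against 12.6 ± 1.56 CPM in Esamlo (SD, n = 2). Etv6 was at 337 and 375 CPM in Dec205 WT and 205 and 219 CPM in Dec205 CKO, at 426 and 512 against 370 and 362 CPM in Esamlo, and at 492 and 451 against 390 and 434 CPM in Esamhi. In pDC it was at 346 and 352 CPM in WT and 363 and 322 CPM in CKO, which overlapped. A count over the whole gene does not check the loss of single exons, and the labels do not name the deleted part. Sex moved with genotype: Xist ran from 0 to 1.44 CPM in WT and from 114 to 355 CPM in CKO, and Ddx3y from 105 to 222 CPM in WT and from 0.0528 to 1.95 CPM in CKO. Sex and genotype therefore cannot be told apart in any comparison of CKO with WT.

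Oxidative phosphorylation takes place in the inner mitochondrial membrane. Complex I (NADH dehydrogenase) and complex II (succinate dehydrogenase) pass electrons to ubiquinone, complex III (cytochrome bc1) passes them to cytochrome c, and complex IV (cytochrome c oxidase) passes them to oxygen. ATP synthase uses the proton gradient that complexes I, III and IV build. Most subunits are encoded in the nucleus and imported, the rest in mitochondrial DNA. The 78 genes hold 36 subunits of complex I (7 of the catalytic core and 29 accessory), 4 of complex II, 8 of complex III, 12 of complex IV with Ndufa4 counted there, and 15 of ATP synthase (5 of the catalytic F1 head, 10 of the membrane part and stalk). Another 3 are not subunits: Cox7a2l, which takes part in joining complexes III and IV into supercomplexes, Atp5s (coupling factor B) and Atp5sl, which despite its symbol is an assembly factor of complex I.

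Dec205 cells had the highest summed level of OXPHOS RNA. Summed over the 78 genes, the WT libraries held 9315 and 9155 CPM in Dec205, 7281 and 6909 CPM in Esamlo, 6690 and 6909 CPM in pDC, and 5983 and 6437 CPM in Esamhi. Both Dec205 libraries lay above all 6 others, and the Esamlo and pDC libraries met at 6909 CPM. In CKO the sums were 8849 and 8693 CPM in Dec205, 6797 and 7389 CPM in pDC, 6290 and 6756 CPM in Esamlo, and 5983 and 5705 CPM in Esamhi. Dec205 was again above all others and Esamhi below all others. These CPM values use library sizes scaled by TMM, which corrects for differences in composition. As an unscaled percent of counts, Dec205 WT was highest in WT (0.85% and 0.847%), pDC WT (0.728% and 0.754%) overlapped Esamlo WT (0.739% and 0.695%), and Dec205 CKO (0.875% and 0.797%) overlapped pDC CKO (0.749% and 0.805%). CPM is a share of the counts of a library, so it does not measure RNA per cell. A lower share may come from the mix of cells in a sort or from the share within each cell. Bulk libraries cannot tell these apart.

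**Figure D1:**
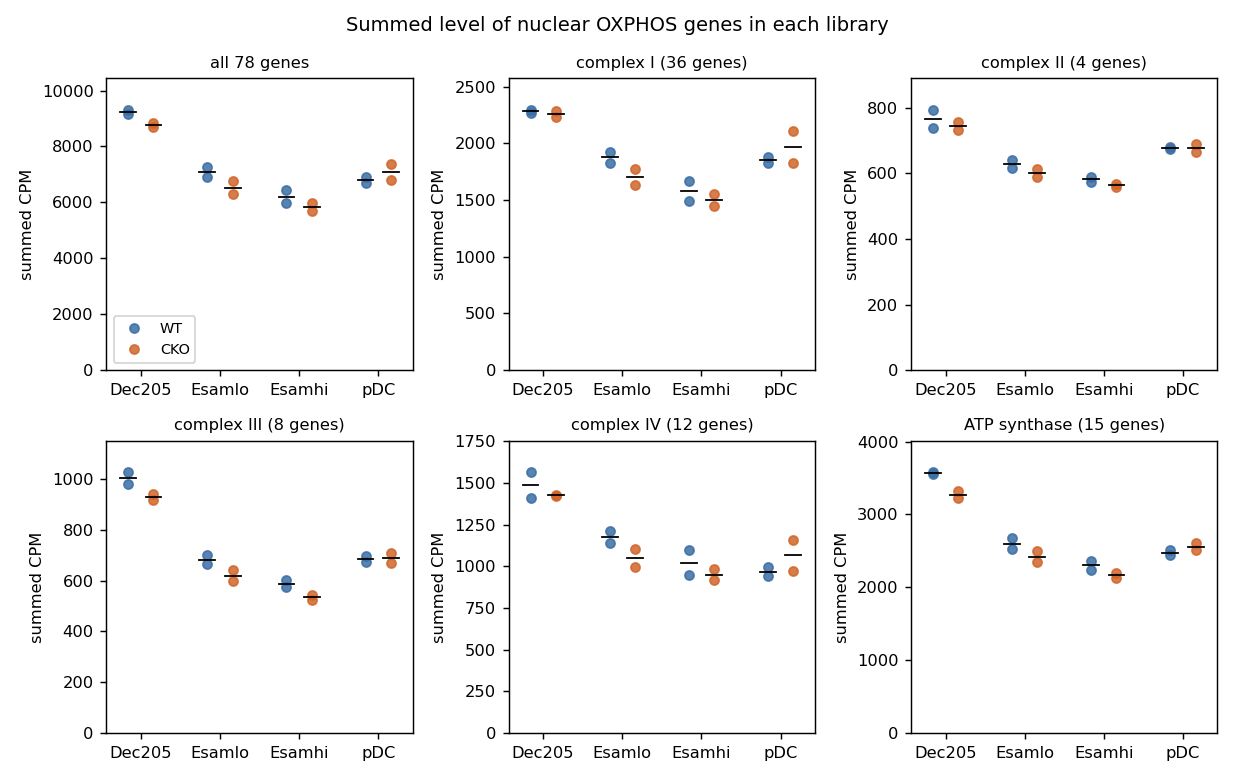
Summed CPM (y axis) of all 78 genes and of each complex in each of the 16 libraries, by subset (x axis) and genotype (colour); points are libraries and lines are the means of 2. Dec205 WT libraries (9155 and 9315 CPM) lie highest for all 78 genes, and in complex IV the pDC WT libraries (941 and 995 CPM) lie below those of Esamlo WT (1138 and 1210 CPM).

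The levels of single genes differed by over an order of magnitude between subunits that sit together in 1 complex. Per kilobase of transcript, the most abundant gene was Atp5b, the catalytic beta subunit of ATP synthase, with a mean of 491 CPM per kb, and the least abundant in that complex was Atp5g1 with 15.7 CPM per kb. In complex IV the level ran from 355 CPM per kb for Cox4i1, the ubiquitous form of subunit 4, down to 4.57 for Cox6b2. The next lowest there was Cox7c with 48.1 CPM per kb. In complex I it ran from 164 CPM per kb for Ndufa6 to 6.98 for Ndufab1, the mitochondrial acyl carrier protein. Complexes II and III were more even. Sdha, Sdhb and Sdhd were at 113, 108 and 105 CPM per kb and the membrane anchor Sdhc at 37.9, and the subunits of complex III ran from 141 CPM per kb (Uqcr10) to 64.3 (Uqcrc2, a core protein). These levels rest on the median spliced length of coding transcripts in GENCODE M21, and a transcript with a long untranslated end that the cells do not use lowers the value.

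Several tissue-specific isoforms were at or near 0, with Cox6a2 in pDC as an exception. Cox4i2, the isoform of subunit 4 known from lung, had a mean of 0.07 CPM and Cox7a1, known from heart and muscle, 0.12 CPM, both under the threshold. Cox8b, Cox8c and Cox7b2 had 0 counts in every library, and Ndufa4l2 had a mean of 0.00666 CPM. Subunit c of ATP synthase is made from 3 genes with the same mature protein. Of their summed level per kb, Atp5g3 held 73.7% to 79.6%, Atp5g2 15.2% to 21.8% and Atp5g1 3.98% to 6.22% across the 8 group means. Without division by length the means were 170 CPM for Atp5g3, 41.9 CPM for Atp5g1 and 32.6 CPM for Atp5g2. The order of Atp5g1 and Atp5g2 therefore rests on the annotated lengths. By group mean the share of Atp5g2 was lowest in Dec205 WT (14.2% and 16.2% in its libraries) and highest in Esamhi WT (21.8% in both). Cox6a2, the heart and muscle isoform that the selection leaves out, was at 272 and 278 CPM in pDC WT and at 620 and 779 CPM in pDC CKO, against at most 20.2 CPM in any library of the other subsets. In each of those subsets too, both CKO libraries lay above both WT libraries. The CKO and WT means were 6.18 and 0.0718 CPM in Dec205, 16.3 and 0.531 CPM in Esamlo, and 8.34 and 0.551 CPM in Esamhi.

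Dec205 against the cDC2 subsets was the largest contrast. In WT, 55 of 78 genes had a higher level in Dec205 against the mean of the Esamlo and Esamhi groups and 1 a lower level, at an adjusted p under 0.05 (edgeR quasi-likelihood test, Benjamini-Hochberg over 13790 genes). Over all tested genes 41.1% were called, 20.2% higher and 20.8% lower. The median log2 fold change was 0.44 for the 78 genes and -0.04 for all tested genes. In CKO, 63 were higher and 2 lower, against 20.1% and 21.4% of all tested genes (41.5% in all), with a median of 0.54. Of the 55 genes higher in WT, 54 were also called in CKO, which is 98.2% of the WT calls and 85.7% of the CKO calls. Medians also differed by transcript length. For transcripts under 1 kb they were 0.24 in WT and 0.39 in CKO over all 1076 tested genes. The 50 such genes among the 78 had 0.42 and 0.55. For 1 to 3 kb they were 0.08 and 0.14 over all 6505 tested genes. The 28 such genes among the 78 had 0.55 and 0.53. At 3 kb or more, where none of the 78 lie, they were -0.29 and -0.34. How far transcript length enters this contrast was not tested.

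Every complex took part in the difference. In WT the genes higher in Dec205 were 22 of 36 in complex I (median log2 fold change 0.40), 3 of 4 in complex II (0.58), 7 of 8 in complex III (0.64), 10 of 12 in complex IV (0.44) and 12 of 15 in ATP synthase (0.49). In CKO the counts were 27, 3, 8, 11 and 13. Without TMM scaling the median of all tested genes moved to -0.16 in WT and those of the complexes to between 0.28 and 0.52, with 38 genes higher and 1 lower. The complexes stayed in the same direction under that scaling and under RLE scaling.

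The genes with the largest differences in WT were spread over complexes I and III and ATP synthase. Ndufa12, an accessory subunit of complex I, was at 35.8 and 28.3 CPM in Dec205 WT, 18.8 and 16 CPM in Esamlo WT, and 13.6 and 13.4 CPM in Esamhi WT. Its log2 fold change was 1.06 (SE 0.15, edgeR adjusted p = 0.000118) in WT and 1.33 (SE 0.15, edgeR adjusted p = 1.7e-05) in CKO. The groups did not overlap. Uqcrb, the ubiquinone-binding subunit of complex III (chromosome 13, 66900617 to 66905378, GRCm38), was at 104 and 87.9 CPM in Dec205 WT against 37.5 to 56.1 CPM in the 4 cDC2 WT libraries. The log2 fold change was 1.04 (SE 0.11, edgeR adjusted p = 7.46e-06). In CKO the values were 97.2 and 100 CPM in Dec205 against 37.7 to 47.5 CPM, again without overlap. Its exons share 50 bases with Gm10767, and a kit without strand information cannot assign reads there.

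Atp5g1, the subunit c gene with the lowest level per kb, was at 74.4 and 71.1 CPM in Dec205 WT and at 27.9 to 44.4 CPM in the cDC2 WT libraries. The log2 fold change was 1.05 (SE 0.13, edgeR adjusted p = 3.6e-05). The Dec205 CKO libraries, with 61.1 and 49.3 CPM, lay between these and still above every cDC2 library. The X-linked accessory gene Ndufb11, at 104 and 96.6 CPM in Dec205 WT against 43.4 to 56 CPM, gave 1.05 (SE 0.10, edgeR adjusted p = 3.88e-06); it shares exon bases with Rbm10. Atp5b, the catalytic subunit of ATP synthase, at 1317 and 1287 CPM against 800 to 885 CPM, had a log2 fold change of 0.64 (SE 0.05, edgeR adjusted p = 9.23e-07).

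Not every gene followed. Sdha, the flavoprotein of complex II that oxidises succinate, was at 332 and 348 CPM in Dec205 WT, 338 and 336 CPM in Esamlo WT, 351 and 330 CPM in Esamhi WT, and 324 and 342 CPM in pDC WT. All 4 subsets overlapped, and the log2 fold change of Dec205 against cDC2 was 0.01 (SE 0.08, edgeR adjusted p = 0.979), while its partner Sdhb, the iron-sulfur subunit, gave 0.76 (SE 0.08, edgeR adjusted p = 7.95e-06). The gene called lower in Dec205 was Atp5sl, with 28.8 and 19.3 CPM in Dec205 WT against 35 to 41.5 CPM in the cDC2 libraries and a log2 fold change of -0.68 (SE 0.17, edgeR adjusted p = 0.00576). Without Dec205 WT replicate 2 that call was lost (-0.42, edgeR adjusted p = 0.0818). In CKO, Cox6b2 was also lower (-2.24, SE 0.68, edgeR adjusted p = 0.0179), at 0.82 and 0.584 CPM in Dec205 against 2.88 to 3.73 CPM, a call that was lost without either Dec205 CKO library (edgeR adjusted p = 0.0546 and 0.0911).

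**Figure D2:**
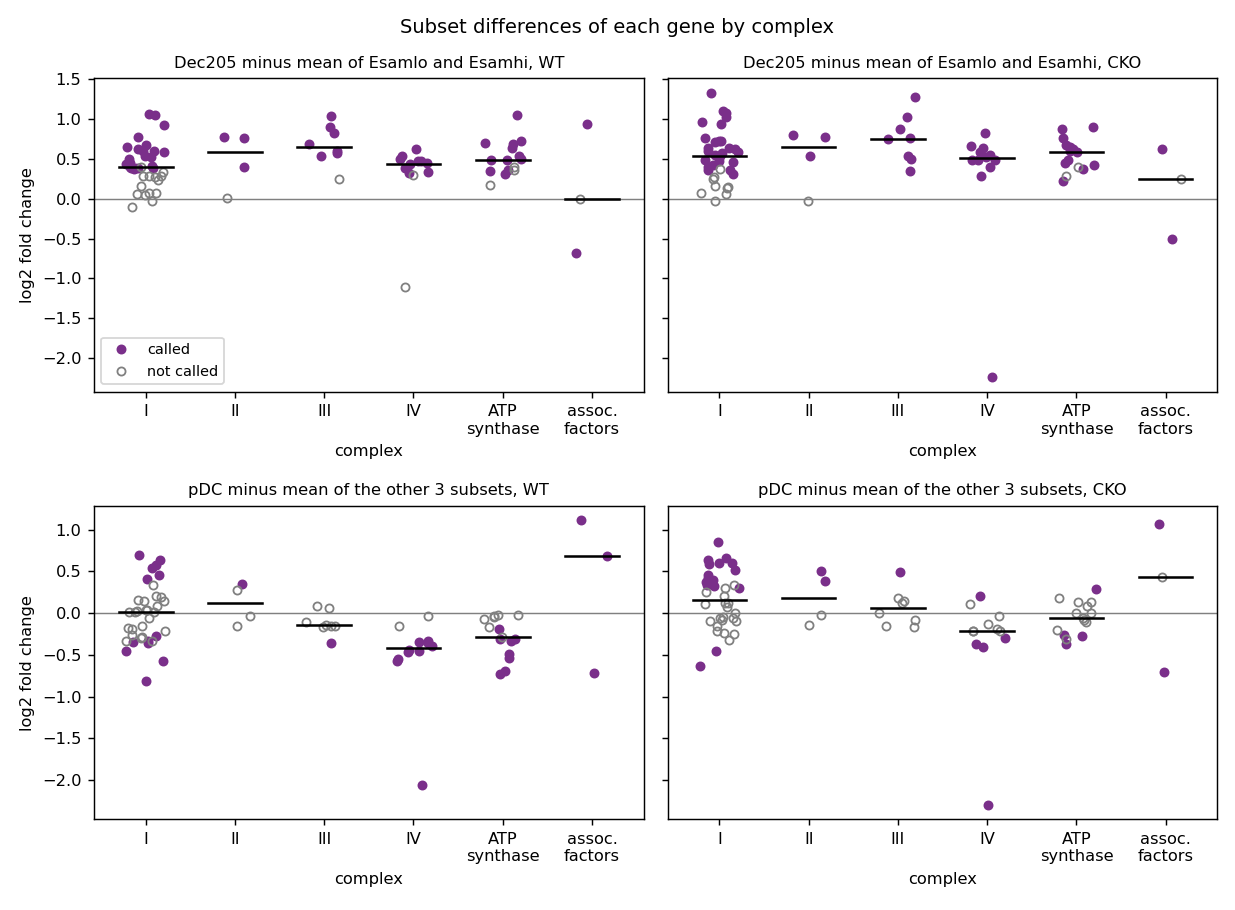
Log2 fold change (y axis) of each of the 78 genes by complex (x axis) for Dec205 against the mean of Esamlo and Esamhi (top) and pDC against the mean of the other 3 subsets (bottom), in WT (left) and CKO (right); filled points passed an adjusted p of 0.05, open points did not, and lines are medians. In WT the medians for Dec205 are 0.40 to 0.64 in complexes I to IV and ATP synthase, and for pDC they run from -0.41 in complex IV to 0.12 in complex II.

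In pDC the difference lay mainly in complex IV and ATP synthase. Against the mean of the 3 classical subsets in WT, 9 genes were higher and 27 lower, where 52% of all tested genes were called, 25.4% higher and 26.7% lower. This comparison uses the same Dec205, Esamlo and Esamhi libraries as the one above. The calls lower in pDC were 10 of 12 genes in complex IV (median log2 fold change -0.41) and 8 of 15 in ATP synthase (-0.29), and neither held a gene called higher. Complex I held 6 higher and 7 lower (0.01), complex II 1 higher and 0 lower (0.12), and complex III 0 higher and 1 lower (-0.14). In complexes I, II and III these calls did not exceed the shares of all tested genes. Across the 78 genes the log2 fold change was lower for shorter transcripts (Pearson r 0.30, Spearman rho 0.32). By length class, the genes among the 78 had medians of -0.19 under 1 kb and -0.16 at 1 to 3 kb. All tested genes of those classes had -0.05 and 0.05. The part of transcript length in the differences between complexes was not tested. Without TMM scaling the median of all tested genes moved from -0.01 to 0.16, and the median of complex III changed sign to 0.03. The 78 genes then had 14 calls higher and 11 lower. The shares of all tested genes called without TMM scaling are not given here. In that setting complex IV had 6 lower and 0 higher (median -0.24), ATP synthase 2 lower and 0 higher (-0.13), complex I 9 higher and 2 lower (0.17), and complex II 2 higher and 0 lower (0.29).

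These counts depended on single libraries. How far the calls over all tested genes moved when a library was left out is not given here. The changes in count can therefore not be called particular to the 78 genes. Without pDC WT replicate 1, 17 of the 78 genes were called (6 higher, 11 lower) in place of 36. The median over the 78 genes stayed between -0.19 and -0.14 when any library was left out. In CKO, 20 genes were higher in pDC and 10 lower, against 23.9% and 24.7% of all tested genes (48.6% in all), and the median was -0.00. Those 30 calls came to 18 (7 higher, 11 lower) without pDC CKO replicate 2 and 19 (17 higher, 2 lower) without pDC CKO replicate 1. The library pDC CKO replicate 2 stood above its partner in the summed level of complex I (2112 against 1822 CPM) and complex IV (1155 against 974 CPM). Its cytosolic ribosomal protein genes were also higher, with a mean log2 CPM of 5.37 against 5.06 to 5.16 in the other pDC libraries; the part of this in the calls was not tested. Without TMM scaling the CKO calls were 32 higher and 3 lower, and the median of ATP synthase changed sign from -0.06 to 0.12. The median of all tested genes moved from -0.02 to 0.16, and their called shares in that setting are not given here. Both genotypes shared 8 of the genes called higher (88.9% of the WT calls and 40% of the CKO calls) and 10 of those called lower (37% of the WT calls and 100% of the CKO calls).

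Within complex I, the catalytic core and the accessory subunits were counted separately in pDC. Of 7 core genes in WT, 3 were higher and 1 lower, with a median of 0.34, and of 29 accessory genes 3 were higher and 6 lower, with a median of -0.06. The 3 core genes called higher encode subunits of the arm that carries electrons along iron-sulfur clusters to ubiquinone. Ndufs7 was at 79 and 75.9 CPM in pDC WT against 37.4 to 59.5 CPM in the 6 other WT libraries (log2 fold change 0.69, SE 0.11, edgeR adjusted p = 0.00015). Ndufs3 was at 42 and 42.1 CPM against 23.9 to 29.9 CPM (0.64, SE 0.11, edgeR adjusted p = 0.000244), and shares exon bases with Kbtbd4. Ndufs8 was at 116 and 107 CPM against 56.3 to 100 CPM (0.57, SE 0.11, edgeR adjusted p = 0.000762). None of these groups overlapped in WT, and all 3 genes were called higher in pDC CKO too, at 0.60, 0.59 and 0.60. In CKO, Ndufs7 was at 64.1 and 82 CPM in pDC, which overlapped the 66.2 and 67.6 CPM of Dec205. Ndufv2, the core gene called lower, had a log2 fold change of -0.33 (SE 0.10, edgeR adjusted p = 0.0144).

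Among accessory subunits of complex I, Ndufc2 was lowest in pDC. It had 48.9 and 42.2 CPM in pDC WT, 59 and 66.8 CPM in Esamhi WT, and 85.8 to 93.3 CPM in the Esamlo and Dec205 WT libraries. Its log2 fold change was -0.81 (SE 0.12, edgeR adjusted p = 8.49e-05). Ndufb10 and Ndufv3 went the other way, at 0.45 (SE 0.11, edgeR adjusted p = 0.00377) and 0.54 (SE 0.13, edgeR adjusted p = 0.00356) in WT. In CKO they gave 0.66 and 0.85, both called.

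In complex IV the genes called lower in pDC WT were Cox5a, Cox5b, Cox6a1, Cox6b1, Cox6b2, Cox6c, Cox7a2, Cox7b, Cox7c and Ndufa4. Cox4i1 and Cox8a were not called. Cox6c, an accessory subunit of the oxidase, was at 54.8 and 61 CPM in pDC WT against 73.9 to 107 CPM in the other WT libraries, without overlap (-0.58, SE 0.11, edgeR adjusted p = 0.000637). Cox6b2, known as the testis form of subunit 6b, had the largest fold but few reads: 0.214 and 0.864 CPM in pDC WT, 1.44 and 1.29 CPM in Dec205 WT, 4.15 and 3.85 CPM in Esamlo WT, and 1.65 and 2.7 CPM in Esamhi WT. Its log2 fold change of -2.06 (SE 0.66, edgeR adjusted p = 0.0186) was not called without pDC WT replicate 1 (-1.41, edgeR adjusted p = 0.146). The ubiquitous form Cox6b1 was at 84.5 and 90.5 CPM in pDC WT and 93.1 to 154 CPM in the others (-0.47, SE 0.10, edgeR adjusted p = 0.00204).

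In ATP synthase the membrane part and stalk held 6 of 10 genes called lower, with a median of -0.31, and the F1 head 2 of 5, with a median of -0.05. With library size alone the complex had 2 calls in place of these 8. Atp5l (subunit g) was at 16.7 and 19.5 CPM in pDC WT and 23.9 to 35 CPM in the other WT libraries (-0.70, SE 0.14, edgeR adjusted p = 0.00101). Atp5k (subunit e), at 8.12 and 10.2 CPM against 12.9 to 19 CPM, gave -0.73 (SE 0.22, edgeR adjusted p = 0.0147), and was not called without pDC WT replicate 1 (edgeR adjusted p = 0.129) or without TMM scaling (edgeR adjusted p = 0.0508). GENCODE names pseudogenes of both, so reads may be split between copies.

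The 3 associated factors went different ways in pDC. Atp5sl (chromosome 7, 25619414 to 25625551, GRCm38) was at 68.7 and 73.2 CPM in pDC WT and 75 and 74.1 CPM in pDC CKO, against 19.3 to 44.3 CPM in the 12 other libraries. The groups did not overlap, and the log2 fold change was 1.11 (SE 0.14, edgeR adjusted p = 2.72e-05) in WT and 1.07 (SE 0.14, edgeR adjusted p = 3.95e-05) in CKO. Cox7a2l, the supercomplex factor, went the opposite way. It was at 51.6 and 64.5 CPM in pDC WT and 49.3 and 62.3 CPM in pDC CKO, below the 80.6 to 105 CPM of all other libraries (-0.72, SE 0.12, edgeR adjusted p = 0.000205 in WT). Atp5s was at 13.7 and 12.6 CPM in pDC WT, within the Dec205 WT values of 9.94 and 15.4 CPM and above the 5.8 to 7.52 CPM of the cDC2 WT libraries. Its pDC call (0.68, SE 0.22, edgeR adjusted p = 0.019) was lost without either pDC WT library, at edgeR adjusted p = 0.127 and 0.0602.

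**Figure D3:**
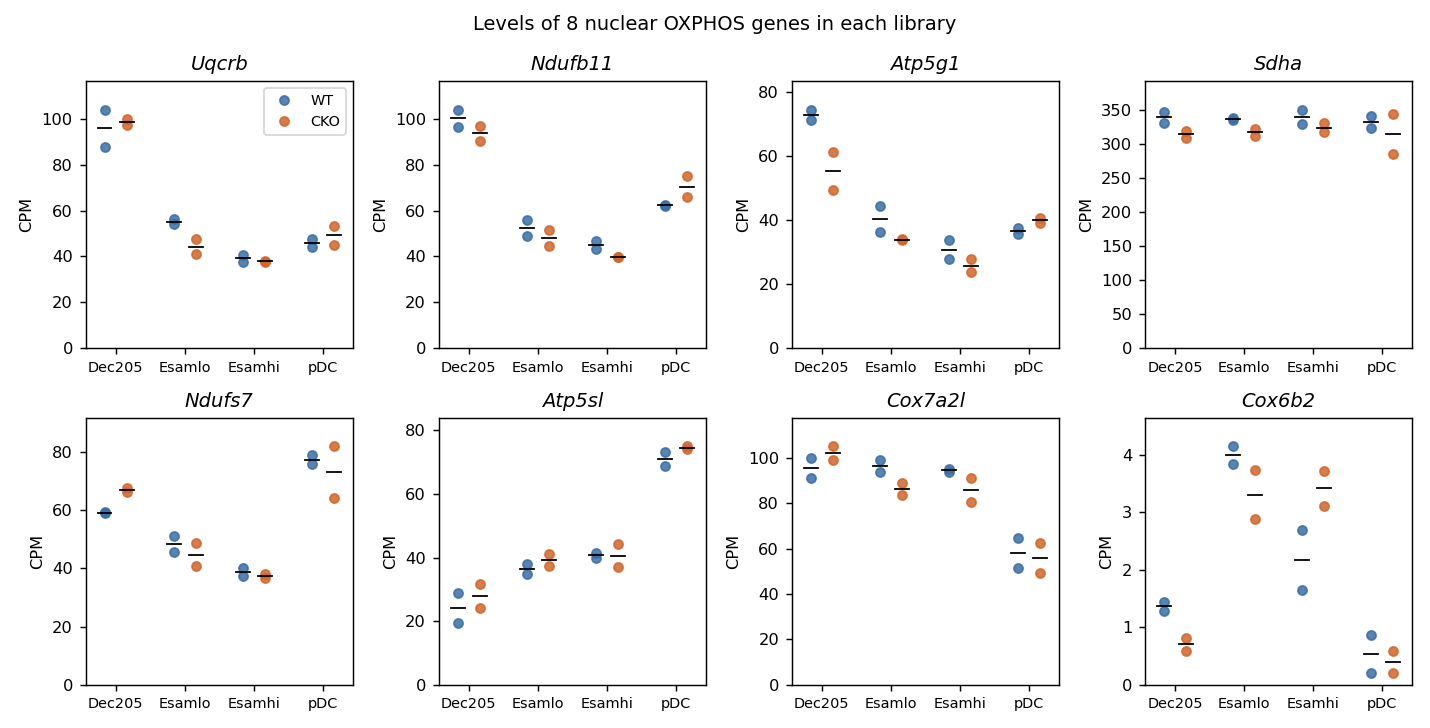
CPM (y axis) of 8 genes in each of the 16 libraries, by subset (x axis) and genotype (colour); points are libraries and lines are the means of 2. By group mean, Uqcrb, Ndufb11 and Atp5g1 are highest in Dec205, and Ndufs7 and Atp5sl in pDC. For Ndufs7 the CKO libraries of pDC and Dec205 overlap. Cox7a2l is lowest in pDC (49.3 to 64.5 CPM), and Sdha lies between 285 and 351 CPM in all libraries.

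Few single genes were called between Esamhi and Esamlo. In WT, 2 of the 78 genes were lower in Esamhi and 0 higher, where 5.81% of all tested genes were called, 3.09% lower and 2.72% higher. Uqcrb was at 37.5 and 40.8 CPM in Esamhi WT and 56.1 and 54 CPM in Esamlo WT (-0.49, SE 0.13, edgeR adjusted p = 0.0476). Ndufa9, an accessory subunit of complex I, was at 60.7 and 59.4 CPM in Esamhi WT and 83.9 and 82.7 CPM in Esamlo WT (-0.47, SE 0.10, edgeR adjusted p = 0.0182). Neither gene's groups overlapped, but both calls were lost when any 1 of the 4 libraries was left out, with edgeR adjusted p from 0.0872 to 0.337. The median over the 78 genes was -0.25 in WT and -0.17 in CKO, against 0.00 and -0.01 for all tested genes. Their summed level was lower in Esamhi without overlap. It was 5983 and 6437 against 7281 and 6909 CPM in WT, and 5983 and 5705 against 6290 and 6756 CPM in CKO. In CKO 0 genes were called, where 3.02% of all tested genes were called, 1.49% lower and 1.53% higher. An unadjusted p under 0.05 was found for 15 of the 78, and the share of all tested genes at that cutoff is not given here. The smallest adjusted p-values by edgeR were 0.0769 (Sdhb, -0.35) and 0.077 (Atp5a1, -0.30), and DESeq2 called both (adjusted p = 0.0168 and 0.0138). Of genes with the shortest transcripts, under 1 kb, all 1076 tested had a median of -0.16 in this WT comparison and the 50 among the 78 a median of -0.26.

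CKO and WT were compared in each subset, and 0 of the 78 genes were called in any of the 4 (edgeR quasi-likelihood test). DESeq2 also called 0 in each. Over all tested genes the calls were 6.78% for Dec205 (3.44% higher, 3.34% lower), 1.85% for pDC (1.47% and 0.377%), 0.551% for Esamlo (0.457% and 0.0943%) and 0.877% for Esamhi (0.674% and 0.203%). At an unadjusted p under 0.05, edgeR gave 7 of the 78 genes in Dec205 (5 lower in CKO, 2 higher), 2 in pDC (both higher), 8 in Esamlo (all lower) and 0 in Esamhi. The shares of all tested genes under this unadjusted cutoff are not given here. The median log2 fold change was -0.04 for Dec205, 0.08 for pDC, -0.16 for Esamlo and -0.10 for Esamhi, against 0.00 to 0.01 for all tested genes. The standard error of a single gene had a median of 0.14 in each subset, so differences of this size were not detectable gene by gene with 2 libraries per group.

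**Figure D4:**
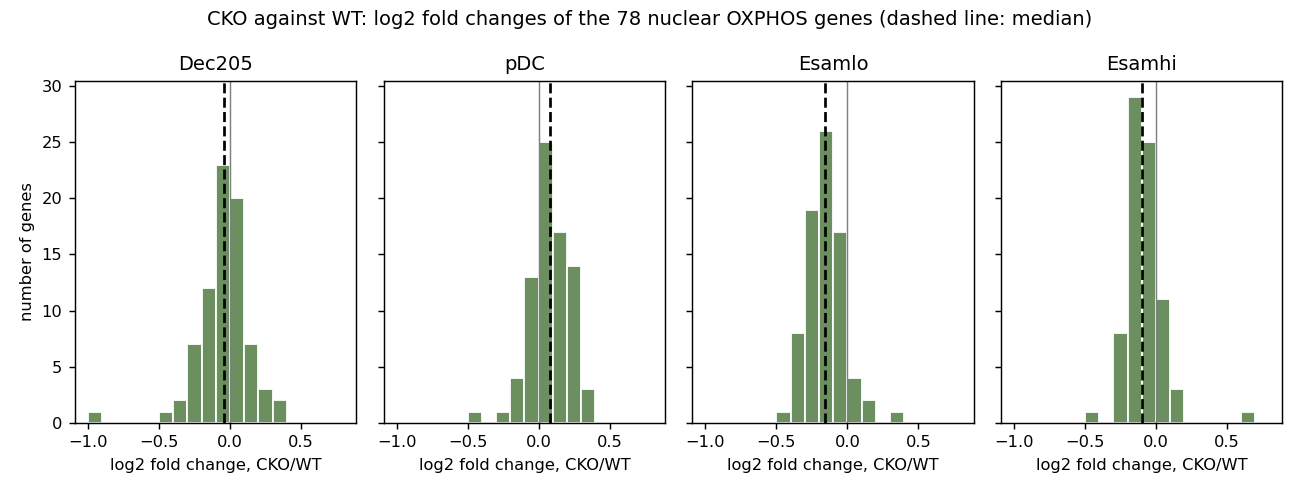
Number of genes (y axis) by log2 fold change of CKO against WT (x axis, bins of 0.1) for the 78 genes in each subset; the dashed line is the median. The medians run from -0.16 (Esamlo) to 0.08 (pDC), and none of the genes passed the test in any subset.

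The direction in Esamlo was shared by most genes. Both CKO libraries lay below both WT libraries for 47 of 78 genes and above them for 2, where 21.1% and 23.1% of all tested genes did so. All 12 genes of complex IV had a negative log2 fold change there (median -0.21), where the median of all tested genes was 0.01. So did 14 of 15 in ATP synthase (-0.21), 33 of 36 in complex I (-0.15), 7 of 8 in complex III (-0.16) and 4 of 4 in complex II (-0.04). Genes are not independent replicates, and the share of all tested genes with a negative value is not given here. The smallest adjusted p was that of Ndufc2, at 85.8 and 91.5 CPM in WT and 64 and 68.3 CPM in CKO (-0.42, SE 0.14, edgeR adjusted p = 0.34). Atp5f1 (subunit b of the stalk) followed, at 205 and 192 CPM in WT and 167 and 174 CPM in CKO (-0.22, SE 0.09, edgeR adjusted p = 0.511); it shares exon bases with Wdr77. The median over the 78 genes stayed between -0.23 and -0.09 when 1 library was left out.

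Other values moved with this difference in Esamlo. All 1076 tested genes with transcripts under 1 kb had a median of -0.10, and those of 3 kb or more a median of 0.04. Cytosolic ribosomal protein genes had a median of -0.15 and mitochondrial ribosomal protein genes -0.12, with 0 called in either list. Across the 78 genes the log2 fold change was related to log2 transcript length, more negative for shorter transcripts (Pearson r 0.38, Spearman rho 0.36, across genes, which are not independent replicates). Mean log2 CPM of B cell markers was 5.30 and 4.10 in the Esamlo CKO libraries and 3.34 and 3.88 in WT. Neutrophil markers summed to 41.5 and 40.4 CPM in CKO and 22 and 13.9 CPM in WT, cell cycle genes to 1791 and 1698 CPM against 2226 and 2006 CPM, and cDC2 markers had a mean log2 CPM of 6.73 and 6.81 against 7.25 in both WT libraries. None of these 3 lists overlapped between genotypes, and 0 of their 5, 24 and 8 tested genes were called. All 9 B cell genes tested had a positive log2 fold change there (median 1.13), and 0 were called. The part of transcript length, of the cell cycle or of RNA from other cells in the OXPHOS values was not tested.

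In Esamhi both CKO libraries lay below both WT libraries for 26 genes and above them for 3, against 21.8% and 22.4% of all tested genes. In the same libraries cell cycle genes summed to 1650 and 1561 CPM in CKO and 2240 and 2247 CPM in WT (24 of 24 negative, median -0.46, 0 called). Neutrophil markers summed to 35.9 and 42.3 CPM in CKO and 6.76 and 7.68 CPM in WT (5 of 5 positive, 0 called). Their part in the OXPHOS values was not tested. The smallest adjusted p-values were those of Uqcrc1, at 157 and 151 CPM in WT and 138 and 129 CPM in CKO (-0.21, SE 0.10, edgeR adjusted p = 0.75), and Atp5a1 (-0.16, SE 0.08, edgeR adjusted p = 0.804). In pDC, where the Etv6 level of the libraries labelled CKO overlapped WT, the counts were 3 below and 17 above, against 16.7% and 20.6%. There Cox4i1 was at 251 and 259 CPM in WT and 279 and 319 CPM in CKO (0.23, SE 0.09, edgeR adjusted p = 0.37), and Ndufb9 gave 0.27 (SE 0.12, edgeR adjusted p = 0.452). The pDC median of 0.08 became -0.03 without pDC CKO replicate 2.

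In Dec205, the subset with the most genes called over the whole table, 23 of the 78 genes had both CKO libraries below both WT libraries and 8 had both above, against 21.1% and 20.1%. Ndufs3 was at 29.6 and 26.2 CPM in WT and 37.2 and 33.9 CPM in CKO (0.35, SE 0.14, edgeR adjusted p = 0.145). Ndufa9 was at 111 and 114 CPM in WT and 141 and 134 CPM in CKO (0.28, SE 0.10, edgeR adjusted p = 0.126). Atp5g1 was at 74.4 and 71.1 CPM in WT and 61.1 and 49.3 CPM in CKO (-0.40, SE 0.16, edgeR adjusted p = 0.15). The groups of these 3 genes did not overlap, and none passed the test. Ndufs1, the largest core subunit of complex I, was at 64.6 and 109 CPM in WT and 65.2 and 75.4 CPM in CKO, which overlapped. Without Dec205 WT replicate 1 its log2 fold change was -0.62, a value that rests on the 109 CPM library alone in WT. B cell markers had a mean log2 CPM of 4.79 and 3.71 in the Dec205 CKO libraries and 3.34 and 2.87 in WT, with 3 of 9 genes called higher; their part in the OXPHOS values was not tested.

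Averaged over the 4 subsets, 2 of the 78 genes were lower in CKO and 0 higher, where 5.82% of all tested genes were called, 1.89% lower and 3.92% higher. Atp5c1 encodes the gamma subunit, the rotating shaft inside the F1 head (chromosome 2, 10056016 to 10080510, GRCm38). Its WT and CKO values were 305 and 341 against 272 and 281 CPM in Dec205, 214 and 240 against 191 and 207 CPM in pDC, 215 and 222 against 186 and 192 CPM in Esamlo, and 179 and 190 against 172 and 168 CPM in Esamhi. The groups did not overlap in any of the 4 subsets, and the average log2 fold change was -0.19 (SE 0.04, edgeR adjusted p = 0.0253). GENCODE names a pseudogene of Atp5c1.

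Uqcrfs1 encodes the Rieske iron-sulfur protein of complex III (chromosome 13, 30540308 to 30545362, GRCm38). It was at 217 and 251 against 198 and 196 CPM in Dec205, 132 and 152 against 126 and 120 CPM in pDC, 149 and 144 against 116 and 131 CPM in Esamlo, and 116 and 123 against 115 and 104 CPM in Esamhi. CKO lay below WT without overlap in all 4 subsets, with an average of -0.21 (SE 0.05, edgeR adjusted p = 0.0388). Both averages were small, and the calls did not hold throughout. When 1 of the 16 libraries was left out, Uqcrfs1 was no longer called in 13 of 16 fits (edgeR adjusted p 0.0199 to 0.109) and Atp5c1 in 7 of 16 (0.0153 to 0.075), while the log2 fold changes stayed between -0.23 and -0.18 and between -0.20 and -0.17.

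A joint test for unequal CKO effects among the subsets called 0 of the 78 genes by edgeR and 0 by DESeq2, against 2.44% of all tested genes by edgeR. By edgeR 1 of the 78 (Ndufb9) had an unadjusted p under 0.05, with the share of all tested genes not given here. The smallest adjusted p-values by edgeR were 0.357 for Ndufb9 and 0.429 for Cox6a1. The opposite signs of the medians in pDC and Esamlo are therefore a description. The 3 X-linked genes, Ndufb11, Ndufa1 and Cox7b, whose dosage could follow sex, had average log2 fold changes of -0.06, -0.03 and -0.10, none of them called.

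Promoters were read from RefSeq windows of GRCm38.p6 that run from 250 bases before a start site to 50 after it. Windows were found for 67 of the 78 genes (73 windows). They were searched on both strands for the ETS core CCGGAAG, which ETS-family factors such as Etv6 and GABP bind, the NRF1 site (GCGCA, any base, then GCGC) and the site AAGATGGCG of YY1; NRF1, GABP and YY1 are known regulators of OXPHOS genes. The ETS letters were in 21.9% of the windows, against 16.6% of 13756 windows of tested genes and 8.86% of all 32851 windows. For NRF1 the shares were 24.7%, 9.33% and 4.6%, and for YY1 12.3%, 2.78% and 1.4%. The 16 genes with the ETS letters and the 51 without had median CKO changes of -0.04 and -0.06 for Dec205, 0.09 and 0.06 for pDC, -0.14 and -0.16 for Esamlo, and -0.11 and -0.11 for Esamhi. For Dec205 against cDC2 in WT the medians were 0.47 and 0.45. A match is a string of letters and no site of binding.

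The stretches below run from 150 bases before the start site to 30 after it, 5′ to 3′, with matches in capitals. They show a core complex I gene with a pair of ETS matches (chr2:90904692-90904871), the complex II gene that did not vary with 3 NRF1 matches (chr13:74350211-74350390), a complex II and a complex IV gene with both kinds (chr9:50603820-50603999 and chr5:115348929-115349108), and the genes called in the average, Atp5c1 (chr2:10080403-10080582, with 1 NRF1 match) and Uqcrfs1 (chr13:30545287-30545466, with no match). All 6 genes lie on the minus strand.
Ndufs3: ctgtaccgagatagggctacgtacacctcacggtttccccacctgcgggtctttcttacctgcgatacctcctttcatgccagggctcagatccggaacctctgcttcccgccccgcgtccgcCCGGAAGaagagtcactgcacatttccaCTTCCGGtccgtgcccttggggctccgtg
Sdha: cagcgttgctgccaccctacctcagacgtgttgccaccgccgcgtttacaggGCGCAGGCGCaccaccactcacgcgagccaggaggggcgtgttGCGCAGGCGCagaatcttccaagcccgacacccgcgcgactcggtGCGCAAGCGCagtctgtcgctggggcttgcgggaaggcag
Sdhd: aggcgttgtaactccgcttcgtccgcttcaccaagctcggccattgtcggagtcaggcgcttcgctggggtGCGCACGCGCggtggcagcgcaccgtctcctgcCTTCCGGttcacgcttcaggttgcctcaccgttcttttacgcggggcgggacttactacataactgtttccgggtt
Cox6a1: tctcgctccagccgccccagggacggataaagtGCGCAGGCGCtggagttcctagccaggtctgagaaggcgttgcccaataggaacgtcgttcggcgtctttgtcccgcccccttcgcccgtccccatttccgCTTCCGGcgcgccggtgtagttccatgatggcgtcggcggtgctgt
Atp5c1: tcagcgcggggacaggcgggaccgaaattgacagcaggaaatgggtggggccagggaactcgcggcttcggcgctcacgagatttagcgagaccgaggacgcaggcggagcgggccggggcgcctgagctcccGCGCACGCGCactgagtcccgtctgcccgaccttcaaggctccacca
Uqcrfs1: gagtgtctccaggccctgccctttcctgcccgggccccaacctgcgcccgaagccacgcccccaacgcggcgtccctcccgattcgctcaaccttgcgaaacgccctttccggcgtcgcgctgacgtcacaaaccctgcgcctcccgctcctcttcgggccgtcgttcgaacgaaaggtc
Of these, Ndufs3 had a log2 fold change of 0.64 in pDC against the other WT subsets, and Sdha one of -0.03. A second RefSeq window of Atp5c1, with a start site further upstream, held no match.

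Genes that serve the same machinery were taken from lists, whose counts stand beside 20.2% of all tested genes called higher and 20.8% lower in Dec205 against cDC2 in WT. There, mitochondrial ribosomal proteins, which make the subunits encoded in mitochondrial DNA, held 34 of 76 tested genes higher and 0 lower (median 0.42), with Mrpl42 at 1.68 (SE 0.11, edgeR adjusted p = 1.03e-07). OXPHOS assembly factors held 12 of 44 higher and 1 lower (0.27), led by Ndufaf6 at 2.23 (SE 0.21, edgeR adjusted p = 3.06e-06). Of the 8 carriers and regulators that feed or drain ATP synthase, 7 were higher and 0 lower (0.69). Among them were Atpif1, the inhibitor of ATP synthase (1.89, SE 0.11, edgeR adjusted p = 4.58e-08), and Slc25a4, an ADP/ATP carrier (1.07, SE 0.10, edgeR adjusted p = 1.79e-06). Electron carriers and ubiquinone synthesis held 5 of 17 higher and 2 lower (0.29), with cytochrome c, Cycs, at 1.04 (SE 0.10, edgeR adjusted p = 4.37e-06).

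Further lists were counted in the same comparison. The tricarboxylic acid (TCA) cycle with pyruvate dehydrogenase held 3 of 17 higher and 4 lower (-0.04), cytosolic ribosomal proteins 8 of 84 higher and 8 lower (-0.08), and regulators of mitochondrial biogenesis 1 of 18 higher and 5 lower (-0.27). Glycolysis held 11 of 20 higher and 6 lower (0.38), and cell cycle genes 0 of 24 higher and 11 lower (-0.42). The TCA enzyme Mdh2 was lower in Dec205 (-1.72, SE 0.08, edgeR adjusted p = 3.69e-09) and Suclg1 higher (1.08, SE 0.09, edgeR adjusted p = 7.48e-07).

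In pDC WT against the other subsets, where 25.4% of all tested genes were higher and 26.7% lower, assembly factors held 16 of 44 higher and 5 lower (0.23) and mitochondrial ribosomal proteins 17 of 76 higher and 5 lower (0.16). The carriers held 1 of 8 higher and 6 lower (-0.44), with Atpif1 at -1.56 (SE 0.12, edgeR adjusted p = 2.33e-07). Glycolysis held 3 of 20 higher and 12 lower (-0.39), the TCA list 0 of 17 higher and 6 lower (-0.21), and cytosolic ribosomal proteins 3 of 84 higher and 74 lower (-0.69). Cell cycle genes were lower in 24 of 24 (-4.11). Among regulators of mitochondrial biogenesis, 4 of 18 were higher and 2 lower (-0.03).

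Between genotypes some genes of these lists passed the test, and the counts per list are not given here. Over all tested genes 6.78% were called in Dec205, 0.877% in Esamhi and 5.82% in the average over subsets. In Dec205, Cs and Ogdh of the TCA list fell by 0.33 and 0.31 on the log2 scale (SE 0.08 each, edgeR adjusted p = 0.0208 and 0.0373), and the complex II assembly factor Sdhaf1 fell by 0.83 (SE 0.20, edgeR adjusted p = 0.0251). Mrpl3 rose by 0.64 (SE 0.13, edgeR adjusted p = 0.0129). In Esamhi, Mdh2, the malate dehydrogenase of mitochondria, fell by 0.55 (SE 0.08, edgeR adjusted p = 0.00466). In the average over subsets Mdh2 fell by 0.27 (SE 0.04, edgeR adjusted p = 0.0013) and Dld by 0.25 (SE 0.05, edgeR adjusted p = 0.0115). No assembly factor, electron carrier, biogenesis regulator or carrier was called in pDC, Esamlo or Esamhi. In pDC, 10 of 24 cell cycle genes rose in CKO (median 1.14), where 1.47% of all tested genes were called higher. The OXPHOS median there was 0.08, and the part of cycling cells in that value was not tested.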

How the data were processed

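The 16 RNA-seq libraries were analysed from the authors' deposited table, which holds whole-number counts for each gene. Per the submitters' processing notes, bcl2fastq, Trimmomatic 0.36, Bowtie2 2.2.9 and build mm10 were used; the counting tool and its strand setting were not given in the sources used here. Per the labels' protocols, cDNA came from the SMART-seq v4 kit, which amplifies by PCR without molecular identifiers, so reads are not independent molecules.

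Libraries were grouped by titles into 4 subsets and 2 genotypes. Genes were kept by filterByExpr, scaled by TMM and tested with edgeR 4.0.16 (R 4.3.3; quasi-likelihood F test, robust, two-sided, 1 coefficient per group, 8 residual degrees of freedom), with Benjamini-Hochberg adjustment over 13790 genes and calls at 0.05. Library totals are given in the report, and tested genes held 99.98% of counts. CPM values use TMM-scaled totals, and log2 CPM a prior count of 2. Positions and lengths came from GENCODE M21 (GRCm38). The steps were tested on simulated data. Alternatives were RLE scaling, library size alone, no filter, DESeq2 1.42.0, a replicate block, only the libraries compared, and leaving out each library. The genes and lists were chosen with earlier results of these data known. Named genes are called members, at most 5 in each direction per comparison, the 2 of smallest p where under 3 were called, the highest and lowest level per complex, members at the 1 CPM limit and paralogous isoforms; further genes named to complete a complex or to show genes that did not differ were chosen after their values were seen.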

Additional observations from a re-analysis of the deposited data

How the results depend on the processing

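The results that moved most were as follows. For Esamhi against Esamlo in WT the 2 calls became 1 with RLE scaling, 1 without the filter on low counts, 1 with the replicate block, 5 with only the libraries compared, 6 with library size alone and 6 with DESeq2, and 0 in every fit that left out a library. The 2 calls of the average CKO effect became 4 with DESeq2 and 0 to 2 when a library was left out. With library size alone the median of the 78 genes became 0.00 for pDC against the other subsets in WT, where the median of all tested genes was 0.16, and 0.32 for Dec205 against Esamlo and Esamhi in WT, where it was -0.16, and 0.17 for pDC in CKO, from -0.00. The cause of the other changes was not tested. Calls over all tested genes in these fits and in those without a library are not given here. Leaving out a library gave 0 to 1 calls for CKO against WT in Dec205, 17 to 37 for pDC against the other subsets in WT and 18 to 30 in CKO, and 40 to 54 for Dec205 against Esamlo and Esamhi in WT and 47 to 63 in CKO. The medians then ran from -0.13 to 0.10 for pDC against the other subsets in CKO, and for CKO against WT from -0.03 to 0.17 in pDC and from -0.07 to 0.01 in Dec205, each across 0. The replicate numbers were not taken to pair WT with CKO: the difference of replicate 1 and 2 in WT correlated with that in CKO at 0.03 for Dec205, 0.02 for pDC, 0.05 for Esamlo and -0.17 for Esamhi over 5422 genes. Between subsets of 1 genotype it ran from -0.08 to 0.26 (0.21 for Dec205 and Esamlo in CKO, 0.26 for pDC and Esamlo in CKO), and between groups differing in both from -0.07 to 0.35, so whether subsets share animals was not settled. With the block the calls were 0 in each subset for CKO against WT, 2 for the average, 36 for pDC and 56 for Dec205 in WT. With 2 libraries per group, shifts near 1 standard error could not be resolved.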
